A study of Rattus norvegicus with 30 samples.

Results

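Hyaluronan synthesis and breakdown were followed through the genes Has2 and Cemip in mesenchymal stem cells from rat bone marrow (BMSCs) during the first 72 h of differentiation. Both genes were found by name in the gene column of all 30 sample files, with values of rows of the same name summed, and they were 2 of 9999 gene names. The other genes of hyaluronan metabolism came from 5 lists of 50 genes in all, of which 31 were in the files and 18 could be tested.

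RNA of cultured BMSCs was sequenced before induction (0 h) and at 3, 12 and 72 h of osteogenic (OS), adipogenic (AD) or chondrogenic (CH) induction, which gave 10 groups of 3 samples. The cells were at passage 2 and came from the marrow of 3 female Sprague Dawley rats aged 3 weeks, and each sample pooled 3 cultures. The 72 h samples carry labels of 3 days, and the undifferentiated 0 h samples were the control of all 3 lineages. No group was left uninduced to 3, 12 or 72 h. Induction, the change of medium and time in culture therefore cannot be told apart in comparisons with 0 h. The samples of a group were described as biological replicates, and a figure legend of the study speaks of independent experiments, with no statement on whether each came from a separate isolation, and the p-values measure the spread between these samples.

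Hyaluronan is a long, unbranched chain of alternating glucuronic acid and N-acetylglucosamine that fills the space around mesenchymal cells. It is made at the plasma membrane by the hyaluronan synthases from UDP-sugars, and Has2 is the synthase best known from mesenchyme, where it is needed for heart and cartilage development. Cemip, also called HYBID, binds hyaluronan and is required for its cutting into shorter chains by skin and joint fibroblasts, whereas lysosomal enzymes complete the breakdown and receptors such as Cd44 anchor the chains to the cell.

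Values were in CPM, the reads of a gene scaled to the same total in every library. The totals recovered from the values ran from 3899609 to 9046719 reads, and 3 reads stood for 0.332 to 0.769 CPM, a floor that covers counting error only. The genes listed in the files held 38.9% to 71.4% of these totals. CPM is not corrected for gene length, so the levels of Has2 and Cemip were not compared with each other.

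Of the 30 libraries, 3 stood apart from the other replicates of their group. In OS 3 h replicate 3, 366 of 4363 tested genes lay over 1 log2 unit from the mean of the other replicates, in AD 12 h replicate 1 there were 299 and in AD 72 h replicate 3 there were 425, against at most 219 in any other library. The share of reads on listed genes was 68.8% in OS 3 h replicate 3 against 63.1% in each of its replicates. It was 64.6% in AD 12 h replicate 1 against 54.2% and 54.3%, and 38.9% in AD 72 h replicate 3 against 47.9% and 49.0%. This share does not single out the 3 libraries, since CH 72 h replicate 1 had 67.7% against 62.9% and 60.5%, and CH 12 h replicate 2 had 67.2% against 62.0% and 61.3%. Comparisons of Has2, Cemip and list genes with 0 h that were called in these 3 groups, and results that change without these libraries, are given with and without them, and the part of these differences in the results was not tested.

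Markers were checked against the label of stromal cells. Thy1 (CD90) was at 387 to 8280 CPM over the 30 samples, the integrin chain Itgb1 at 3311 to 15548 CPM and Cd44 at 258 to 2014 CPM, while Eng (CD105) was listed at 0 in 21 samples and did not exceed 0.663 CPM. Of the 7 stromal markers 5 were among the gene names, and their sum ran from 4112 to 23217 CPM. Genes that every cell uses were also near 0 (Actb at 0 to 5.39 CPM, Vim at 0 to 1.58 CPM), so for any gene near 0 the values are given as listed and its absence cannot be read from them. The listed values of Has2, Cemip and the other genes may likewise hold only part of their reads, which was not tested. Of 8 haematopoietic and macrophage markers 3 were among the names, and their sum did not exceed 4.08 CPM in any sample, with Adgre1 the most abundant in the sample of that sum (at most 2.84 CPM, and Lyz2 at most 2.06 CPM). The sum of the 2 endothelial markers found, Kdr and Tek, did not exceed 5.73 CPM. Tek was at 0.143, 0 and 0.91 CPM at 0 h, at 5.37, 3.28 and 5.57 CPM at 72 h of OS and at 2.54, 3.3 and 3.72 CPM at 3 h of AD. At 3 h of OS it was at 2.82, 3.63 and 0.968 CPM, the last in the library that stood apart. All CH samples of 3 and 12 h (1.11 to 1.6 CPM) were also above those of 0 h, and AD at 72 h had 2.85, 2.31 and 0 CPM. The part of Tek in the results of these groups was not tested. Sox9, the cartilage regulator, was at 46.6, 46.8 and 50.8 CPM in the 0 h samples, and CH at 72 h had 1489, 1256 and 1152 CPM. All 6 cartilage markers were among the names, but Acan, Col2a1, Matn1 and Col10a1 stayed under 1 CPM in every sample, and Comp did not exceed 25.1 CPM. At 3 h of OS the sum of the 6, with Sox9 the most abundant, was 99.3, 100 and 103 CPM, while all later OS samples were below 0 h. Lpl, lipoprotein lipase of fat cells, was at 721, 663 and 777 CPM in the 0 h samples, and AD at 72 h had 1160, 1387 and 3216 CPM, the highest value belonging to the library that stood apart. In OS at 72 h, Lpl was at 1143, 1037 and 1140 CPM, close to the other AD samples. Pparg, the regulator of fat cell formation, was highest in OS at 72 h, with 2.24, 2.5 and 1.81 CPM, against 0, 0.177 and 0.95 CPM in AD at 72 h. Plin1, the lipid droplet protein perilipin, was highest in AD at 72 h, with 2.14, 1.42 and 3.48 CPM, against 0.448, 0.312 and 0.904 CPM in OS at 72 h. Cebpa, also a fat cell marker, had a mean of 0.78 CPM at 0 h and of 1.38, 0.184 and 0.395 CPM at 3, 12 and 72 h of AD. Its highest value, 5.39 CPM, was in OS 3 h replicate 3, a library that stood apart. At 12 h of AD, Lpl was at 253, 1093 and 1028 CPM, and the lowest of these again was the library that stood apart. The osteoblast genes Sp7 and Alpl did not exceed 0.221 and 0.368 CPM in any sample, and Ibsp was highest not in OS but in CH at 72 h, with 318, 201 and 221 CPM.

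Has2 makes long hyaluronan chains. At 0 h it was at 18.8, 18.1 and 13 CPM, or 86 to 131 reads. At 3 h of OS the samples had 706, 708 and 513 CPM, at 12 h 50, 50.4 and 55.4 CPM and at 72 h 74.7, 72.2 and 77.6 CPM. All 9 OS samples lay above all 0 h samples, and those of 3 h lay far above the later ones, with the library that stood apart as the lowest of the 3. How many of all tested genes separate in this way was not counted, so a lack of overlap, here and below, is a description only. A lower number of cells of a type and less RNA per cell cannot be told apart in these bulk samples, here or in any later result. The standard error (SE) of each difference below comes from 1 spread per gene shared by all 10 groups, and does not follow the groups compared. For Has2 the SD was 48.1% of the mean at 12 h of AD and 42.6% at 72 h, against at most 18.8% in other groups. Against 0 h, Has2 rose at 3 h of OS by 5.19 ± 0.27 (SE, log2 of CPM + 1, n = 3 and 3; adjusted p = 1.15e-15, limma), which is 38.6 times the mean CPM of 0 h. The rule for a call, a log2 fold change of at least 1 and an adjusted p under 0.05, took in 18.4% of the 4363 tested genes in this comparison. The rise was 1.60 ± 0.27 at 12 h (adjusted p = 9.72e-06; 21.8% of tested genes called) and 2.12 ± 0.27 at 72 h (adjusted p = 2.29e-07; 12.5% called). Between consecutive times Has2 fell by 3.59 from 3 to 12 h of OS (adjusted p = 1.40e-11, 3 of 3 samples lower; 7.82% called). The later step, from 12 to 72 h, was 0.52 (95% interval -0.03 to 1.07; adjusted p = 0.115) and was not called, where 23.2% of genes were. The samples of these times did not overlap, and other settings gave 0.52 to 0.89 for this step, never a call. Its lowest adjusted p over all alternatives was 0.000652. Without OS 3 h replicate 3 the rise at 3 h was 5.34. The stromal markers summed to 23135, 23217 and 21323 CPM at 3 h of OS, above the 16085 to 16892 CPM of 0 h. Mean Itgb1 was higher there (14553 against 7730 CPM) and mean Thy1 lower (6280 against 8052 CPM). The part of these markers in the values of Has2 and Cemip at 3 h of OS was not tested.

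In AD the same gene was at 390, 459 and 401 CPM at 3 h, at 26, 72.7 and 76.6 CPM at 12 h, and at 236, 195 and 92 CPM at 72 h. Every AD sample exceeded every 0 h sample, the 3 h samples were the highest, and the odd values of 12 h (26 CPM) and 72 h (92 CPM) came from the libraries that stood apart. Has2 rose against 0 h by 4.58 ± 0.27 at 3 h of AD (adjusted p = 1.74e-14; 18.8% of tested genes called), 25 times the mean CPM of 0 h. The rise was 1.62 ± 0.27 at 12 h (adjusted p = 1.37e-05; 13.7% called) and 3.22 ± 0.27 at 72 h (adjusted p = 3.50e-11; 15.3% called). With the libraries that stood apart left out together, these values were 2.12 at 12 h and 3.63 at 72 h. From 3 to 12 h of AD Has2 fell by 2.96 (adjusted p = 4.41e-10; 12.9% called), or by a log2 difference of -2.46 without them. It rose by 1.60 from 12 to 72 h (adjusted p = 1.18e-05; 16.0% called), and by 1.51 without both, by 1.11 without AD 12 h replicate 1 alone and by 2.01 without AD 72 h replicate 3 alone. This call was lost in a fit of only the groups compared, which gave the highest adjusted p of the alternatives (1.07e-12 to 0.084). Markers also moved at 72 h of AD: Thy1 was at 387, 431 and 462 CPM, below the samples of all other groups (at least 2243 CPM) and of 0 h (7736 to 8280 CPM), and the sum of the stromal markers was 4112 to 4778 CPM against 16085 to 16892 CPM at 0 h. The haematopoietic and macrophage markers summed to 3.2, 4.08 and 2.38 CPM there and to 0, 0.418 and 0 CPM at 0 h, with Adgre1 at 1.6, 2.84 and 0.317 CPM and Lyz2 at 1.42, 1.24 and 2.06 CPM, both listed at 0 in the 0 h samples. The part of these markers in the values of Has2 and Cemip at 72 h of AD was not tested. At 12 h of AD the stromal sum was 12495, 9976 and 9409 CPM.

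Chondrogenic samples had 49.2, 47.1 and 48.6 CPM of Has2 at 3 h, 253, 237 and 256 CPM at 12 h, and 256, 286 and 279 CPM at 72 h. The replicates were close, no sample reached down to the 0 h samples, and here the 3 h samples were the lowest of the lineage. Has2 rose against 0 h by 1.50 ± 0.27 at 3 h of CH (adjusted p = 3.09e-05; 18.0% of tested genes called). The rise was 3.84 ± 0.27 at 12 h (adjusted p = 1.19e-12; 14.4% called) and 3.98 ± 0.27 at 72 h (adjusted p = 2.45e-13; 18.0% called). From 3 to 12 h of CH it rose by 2.34 (adjusted p = 6.70e-08; 7.68% called), which is 5.15 times the mean CPM of 3 h. Over the interval of 12 to 72 h the difference was 0.14 (95% interval -0.41 to 0.68; adjusted p = 0.742; 13.2% of genes called). At 72 h of CH the stromal markers summed to 9584, 9106 and 9168 CPM, below the 16085 to 16892 CPM of 0 h, with Thy1 at 2579, 2317 and 2243 CPM, and their part in the values of Has2 and Cemip there was not tested.

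**Figure D1:**
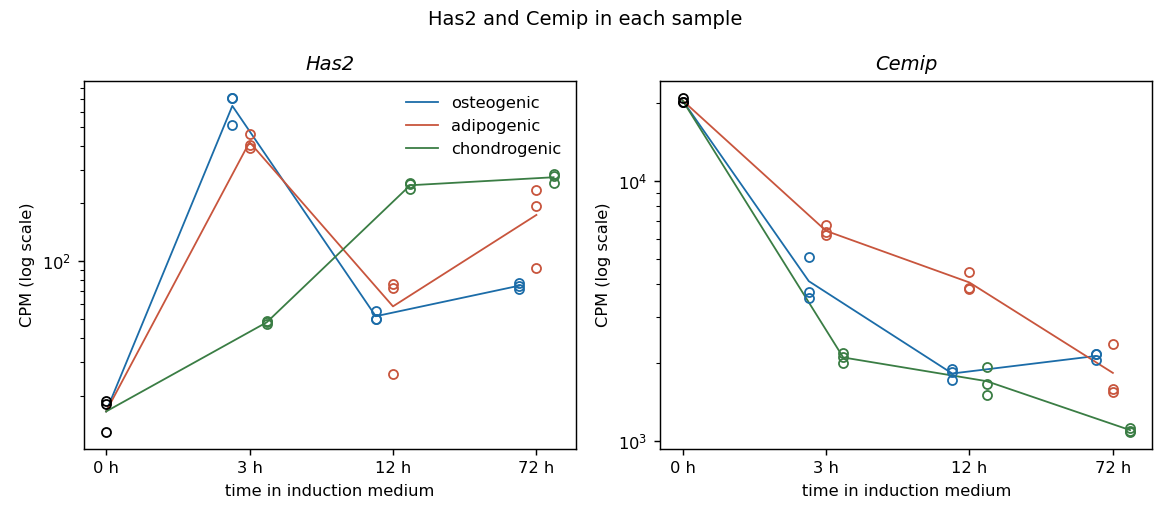
CPM of Has2 (left) and Cemip (right) on log axes at 0, 3, 12 and 72 h, with each circle a sample, black circles the shared 0 h samples and lines joining group means of n = 3. Has2 was highest at 3 h in OS and AD and at 72 h in CH, and Cemip was highest at 0 h with 20114 to 20866 CPM.

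Placed in order of mean CPM, the groups ran for Has2 from OS 3 h (643 ± 112 CPM, SD, n = 3) through AD 3 h (416 ± 36.8), CH 72 h (274 ± 15.7), CH 12 h (249 ± 10.4), AD 72 h (175 ± 74.3), OS 72 h (74.9 ± 2.68), AD 12 h (58.5 ± 28.1), OS 12 h (51.9 ± 3.04) and CH 3 h (48.3 ± 1.04) to 0 h (16.6 ± 3.13). Of the 9 pairs of neighbours in this order, 7 did not overlap. The exceptions were OS 72 h with AD 12 h and AD 12 h with OS 12 h, pairs that share the widely spread AD 12 h samples. CH 12 h and AD 72 h were apart by a narrow margin, 237 CPM for the lowest of the former and 236 CPM for the highest of the latter, and CH 72 h and CH 12 h by a margin that vanishes at this precision, with 256 CPM for the lowest of the former and the highest of the latter.

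The lineages were compared at each time to ask when the synthase began to differ between media. At 3 h Has2 was higher in OS than in CH by 3.69 ± 0.27 (adjusted p = 8.74e-12; 7.31% of tested genes called), 13.3 times in mean CPM. It was lower in CH than in AD at 3 h (log2 difference -3.08, adjusted p = 2.09e-10; 9.35% called). OS and AD did not overlap at 3 h, yet their difference of 0.61 (95% interval 0.06 to 1.16) was not called (adjusted p = 0.122; 7.66% called).

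At 12 h the order had turned. The log2 difference of OS from CH was -2.24 (adjusted p = 5.72e-08; 16.0% called), and that of CH from AD was 2.22 (adjusted p = 9.13e-08; 13.6% called) or 1.72 without AD 12 h replicate 1. OS and AD overlapped at 12 h, with a difference of -0.02 (95% interval -0.57 to 0.53; adjusted p = 0.974; 13.2% called), and without that library it was -0.52 and not called. At 72 h Has2 in OS was below both other lineages, by a log2 difference of -1.10 from AD (adjusted p = 0.00137; 13.7% called) and of -1.86 from CH (adjusted p = 1.32e-06; 19.6% called). The difference from AD was no longer called without AD 72 h replicate 1 (-0.83) or replicate 2 (-0.97), and was -1.51 with the libraries that stood apart left out. A limma fit of only the groups compared also lost this call, at the same -1.10 (adjusted p = 0.0692). CH exceeded AD at 72 h by 0.75 (95% interval 0.20 to 1.30; adjusted p = 0.0204), under the size needed for a call, where 25.5% of genes were called. Leaving out AD 72 h replicate 1 gave 1.02, which was called, and leaving out the libraries that stood apart gave 0.35. Over the settings that left out no single sample this difference ran from 0.26 to 0.75, and the highest adjusted p of all alternatives was 0.455.

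Whether the change over an interval differed between lineages was tested as an interaction. From 3 to 12 h the change of Has2 in OS was below that in CH (log2 difference -5.93 ± 0.38, adjusted p = 3.05e-13; 14.1% of tested genes called), and the change in CH exceeded that in AD by 5.30 ± 0.38 (adjusted p = 7.00e-12; 14.3% called). OS and AD changed by -0.63 relative to each other (95% interval -1.41 to 0.14; adjusted p = 0.272; 11.1% called), a difference that was called at -1.13 without AD 12 h replicate 1 and at -1.28 with all 3 libraries that stood apart left out. From 12 to 72 h the interaction was -1.08 for OS against AD (adjusted p = 0.0358; 14.2% called), and this call was lost in 9 of the 12 fits that each left out 1 sample, with values of -1.49 to -0.59 and the lowest in size without AD 12 h replicate 1. For CH against AD it was -1.47 (adjusted p = 0.00358; 19.3% called), and -0.97 without AD 12 h replicate 1, where it was not called. A limma fit of only the groups compared lost this call (-1.47, adjusted p = 0.0703) and that of OS against AD (-1.08, adjusted p = 0.207). For OS against CH the interaction was 0.38 (95% interval -0.39 to 1.16; adjusted p = 0.475; 22.5% called).

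Cemip binds hyaluronan and is needed for its depolymerization. At 0 h it was at 20866, 20136 and 20114 CPM, 2.01% to 2.09% of all reads, and no other gene name in the files drew more reads in any of these 3 samples (a share of reads, not a level per length). The OS samples had 3736, 3530 and 5078 CPM at 3 h, 1718, 1893 and 1840 CPM at 12 h, and 2154, 2050 and 2159 CPM at 72 h. All of them lay below all 0 h samples, the highest OS value being that of the 3 h library that stood apart. At 3 h of OS and against 0 h, Cemip fell by 2.33 ± 0.13 on the log2 scale (adjusted p = 7.72e-15), to 0.202 of the mean CPM of 0 h, and the log2 difference was -2.49 without replicate 3 of OS. It fell by 3.49 ± 0.13 at 12 h (adjusted p = 1.50e-18) and by 3.26 ± 0.13 at 72 h (adjusted p = 2.70e-18). Between 3 and 12 h of OS it fell by 1.16 (adjusted p = 6.43e-08), a call lost without OS 3 h replicate 3, where the log2 difference was -0.9997 and just short of the size needed. From 12 to 72 h the difference was 0.22 (95% interval -0.04 to 0.49; adjusted p = 0.17). Other settings gave 0.22 to 0.50 for this step, never a call, with a lowest adjusted p of 0.00311 over all alternatives.

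With adipogenic medium Cemip was at 6336, 6200 and 6737 CPM at 3 h, at 4482, 3868 and 3852 CPM at 12 h and at 1586, 1542 and 2353 CPM at 72 h. The 3 time points did not overlap, and the highest values of 12 and 72 h belonged to the libraries that stood apart. Against 0 h Cemip fell by 1.67 ± 0.13 at 3 h of AD (adjusted p = 9.79e-12), to 0.315 of the mean CPM of 0 h, the smallest fall of the 9 comparisons. It fell by 2.33 ± 0.13 at 12 h (adjusted p = 9.61e-15) and by 3.51 ± 0.13 at 72 h (adjusted p = 3.24e-19), and with the libraries that stood apart left out the log2 differences were -2.40 and -3.70. Over all settings that left out no single sample, the log2 difference at 72 h ran from -3.70 to -2.54 and was called in each. From 3 to 12 h of AD the difference was -0.66 (adjusted p = 0.000198, 3 of 3 samples lower), under the size needed for a call. From 12 to 72 h it fell by 1.18 (adjusted p = 1.32e-08), a difference that came to -0.83 to -0.69 with each of the 3 other scalings, edgeR and DESeq2 and was then not called.

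The CH samples had 2100, 2183 and 2001 CPM of Cemip at 3 h, 1657, 1933 and 1503 CPM at 12 h, and 1125, 1082 and 1096 CPM at 72 h. Most of the fall was thus present at 3 h, and the 3 time points did not overlap. In the comparison with 0 h, Cemip fell by 3.28 ± 0.13 at 3 h of CH (adjusted p = 2.69e-18). The log2 difference was -3.59 ± 0.13 at 12 h (adjusted p = 3.31e-19) and -4.21 ± 0.13 at 72 h (adjusted p = 2.61e-21), the last a fall to 0.0541 of the mean CPM of 0 h. The later steps were below the size needed for a call, -0.31 from 3 to 12 h (adjusted p = 0.0931) and -0.62 from 12 to 72 h (adjusted p = 0.000364).

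For Cemip the order of mean CPM ran from 0 h (20372 ± 428 CPM, SD, n = 3) through AD 3 h (6424 ± 279), OS 3 h (4114 ± 841), AD 12 h (4067 ± 359), OS 72 h (2121 ± 61.8), CH 3 h (2094 ± 91.2), AD 72 h (1827 ± 456), OS 12 h (1817 ± 89.4) and CH 12 h (1698 ± 218) to CH 72 h (1101 ± 22.4). Only 4 of the 9 pairs of neighbours did not overlap: 0 h with AD 3 h, AD 3 h with OS 3 h, AD 12 h with OS 72 h, and CH 12 h with CH 72 h. The groups from OS 72 h to CH 12 h thus formed a stretch in which each overlapped the next.

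At 3 h Cemip differed most between CH and AD (log2 difference -1.62 ± 0.13, adjusted p = 5.13e-11). OS lay between them, at a difference of 0.96 from CH (adjusted p = 2.12e-06) and of -0.66 from AD (adjusted p = 0.000408), both under the size needed for a call. The difference of OS from CH was called, at 1.05 to 1.08, with median-ratio scaling, edgeR and DESeq2, and was 0.79 without OS 3 h replicate 3, the library that stood apart. At 12 h AD stood above both, at a log2 difference of -1.16 for OS (adjusted p = 3.05e-08) and -1.26 for CH (adjusted p = 5.21e-09). OS and CH overlapped at 12 h, with a difference of 0.10 (95% interval -0.16 to 0.37; adjusted p = 0.59). At 72 h none of the differences was called. OS overlapped AD (0.24, 95% interval -0.02 to 0.51, adjusted p = 0.153), a difference that was 0.44 without the library that stood apart and turned negative (-0.29 to -0.06) with each of the 3 other scalings, edgeR and DESeq2. OS exceeded CH by 0.95 (adjusted p = 6.60e-07), and by 1.09, a call, with each sample set to the same sum. CH differed from AD by -0.70 (adjusted p = 4.55e-05), by -0.51 without the library that stood apart, and by -1.22 and -1.20, both calls, with quantile normalization and with the same sum.

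The interaction of Cemip was called in 1 of 6 tests. From 12 to 72 h the change in OS exceeded that in AD by 1.40 ± 0.19 (adjusted p = 1.21e-06). For the same interval the values were 0.84 for OS against CH (adjusted p = 0.000652) and 0.56 for CH against AD (adjusted p = 0.0221). From 3 to 12 h they were -0.50 for OS against AD (adjusted p = 0.0631; -0.27 without the libraries that stood apart), -0.85 for OS against CH (adjusted p = 0.000846) and 0.35 for CH against AD (adjusted p = 0.186). The difference of OS from CH over the earlier interval was called, at -1.05 to -1.12, with median-ratio scaling, edgeR and DESeq2.

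Reads of Has2 were also set against reads of Cemip in the same library, a ratio that a scaling by 1 factor per library cannot move (quantile normalization can). At 0 h there were 0.899, 0.899 and 0.648 Has2 reads per 1000 Cemip reads. With OS this ratio was 189, 201 and 101 in the 3 h samples, 29.1, 26.6 and 30.1 in those of 12 h, and 34.7, 35.2 and 35.9 in those of 72 h. All other samples lay above those of 0 h, and the lowest of them was AD 12 h replicate 1 at 5.81. The group means were 65 ± 7.82, 14.8 ± 7.83 and 105 ± 58 (SD, n = 3) at 3, 12 and 72 h of AD, and 23.1 ± 1.37, 148 ± 24.2 and 249 ± 19.1 in CH. CH at 72 h was the highest group, 305 times the mean of 0 h, and did not overlap the next, OS at 3 h (164 ± 54.5). OS 3 h, CH 12 h, AD 72 h and AD 3 h followed, each overlapping the next. Without the libraries that stood apart the means were 195 for OS 3 h, 138 for AD 72 h and 19.3 for AD 12 h (n = 2 each), and of these overlaps only that of CH 12 h with AD 72 h was left. Over the 10 group means of log2(CPM + 1) the levels of Has2 and Cemip had a Pearson r of -0.34, and over the 9 means without 0 h an r of 0.25. These are descriptions of points whose values come from the same libraries.

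**Figure D2:**
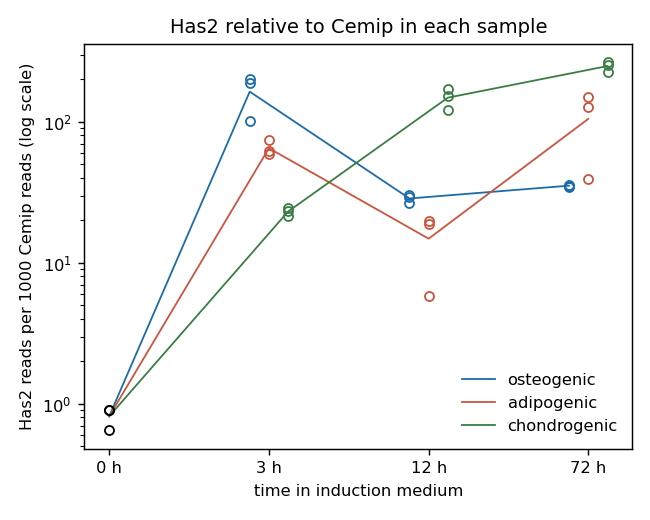
Has2 reads per 1000 Cemip reads in each sample (log axis) at 0, 3, 12 and 72 h, with circles for samples, black circles for 0 h and lines joining group means of n = 3. The 0 h samples sit between 0.648 and 0.899, below all 27 induced samples.

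Of the synthases, Has3 was tested beside Has2 and was not called against 0 h in any of the 9 comparisons, with values between 0.184 and 3.52 CPM over all samples. Has1 did not exceed 0.892 CPM and was not tested. Thus 1 of the 2 tested synthases passed the rule in each comparison, and that was Has2.

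The precursor enzymes supply the UDP-sugars, and 5 of 10 could be tested. Gfpt2, which makes glucosamine 6-phosphate at the entry of the hexosamine pathway, was at 45.1 to 48.1 CPM at 0 h. It reached 362 to 400 CPM at 3 h of OS, 398 to 421 CPM at 3 h of AD and 535 to 571 CPM at 3 h of CH. Its samples did not overlap 0 h in any of the 9 comparisons, a description, since overlap was not counted over all tested genes. The gene rose by 2.98 ± 0.11 at 3 h of OS (adjusted p = 4.78e-19), 3.12 ± 0.11 at 3 h of AD (adjusted p = 2.31e-19) and 3.56 ± 0.11 at 3 h of CH (adjusted p = 8.67e-21). It was called in 8 of 9 comparisons, with AD at 12 h (77.5 to 103 CPM) as the exception, and its call at 12 h of OS (1.39) was lost with quantile normalization. Without the libraries that stood apart its difference was 2.94 at 3 h of OS and 2.23 at 72 h of AD (2.07 with them). Pgm1, which interconverts the glucose phosphates that lead to UDP-glucose, was at 517 to 701 CPM at 0 h and rose by 1.60 ± 0.20 at 12 h of OS (1719 to 1894 CPM; adjusted p = 6.04e-08). It fell by 1.20 at 12 h of AD (adjusted p = 1.44e-05), and the log2 difference was -1.41 without the library that stood apart. At 72 h its log2 differences were -2.54 in AD (adjusted p = 9.16e-12; -2.22 without the library that stood apart) and -1.64 in CH (adjusted p = 5.99e-08). Ugp2, which makes UDP-glucose, rose at 12 h of OS by 1.32 ± 0.24 (adjusted p = 2.50e-05), from 6.83 to 8.19 CPM at 0 h to 15.2 to 24.1 CPM, a call lost (0.98) when each sample was set to the same sum. Pgm3, of the hexosamine pathway, was listed at 0.143, 0.557 and 1.21 CPM at 0 h and at 3.03, 1.87 and 2.53 CPM at 12 h of CH, at most 21 reads (log2 difference 1.13, adjusted p = 0.00908). Gfpt1 was not called in any comparison with 0 h.

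Among the breakdown genes 4 of 11 were tested, and besides Cemip there was 1 call. Hexa, a lysosomal enzyme that removes terminal amino sugars, was at 785 to 875 CPM at 0 h and fell by 1.07 ± 0.16 at 12 h of OS (365 to 420 CPM; adjusted p = 2.25e-06). At 3 h its values were 394 to 598 CPM in OS, 416 to 455 CPM in AD and 414 to 459 CPM in CH, all below 0 h but under the size needed for a call. The value of 598 CPM was that of the library that stood apart, and without it the log2 difference at 3 h of OS was -1.05 and called (-0.85 with it). At 72 h it was at 968 to 1118 CPM in OS, 997 to 1060 CPM in CH, and 879, 902 and 476 CPM in AD, the last in the library that stood apart (log2 difference from 0 h -0.20, and 0.10 without it). Gusb, the lysosomal beta-glucuronidase, had 11.6 to 14.1 CPM at 0 h and was not called in any of these comparisons. Hyal2, a membrane-anchored hyaluronidase, did not exceed 0.744 CPM, and Cemip2, listed under its older name Tmem2, did not exceed 0.315 CPM.

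Receptors were tested for 4 of 8 genes. Cd44, the main cell surface receptor of hyaluronan, was at 591, 579 and 628 CPM at 0 h and at 1961, 2014 and 1202 CPM at 3 h of OS, the lowest of the latter in the library that stood apart. It rose by 1.49 ± 0.13 at 3 h of OS (adjusted p = 5.07e-11), and by 1.73 without that library. Its calls at 12 h of OS (1.003) and at 3 h of AD (1.03) were lost with each of the 3 other scalings and with edgeR and DESeq2. At 72 h of OS and of AD, Cd44 was below 0 h with no overlap but short of the size needed for a call, with means of 302 CPM in OS (log2 difference -0.9881, adjusted p = 2.77e-07) and 301 CPM in AD (-0.9979, adjusted p = 1.60e-07; -1.08 and called without the library that stood apart). At 12 h of AD the difference was -0.64 (adjusted p = 0.000158), and CH at 72 h overlapped 0 h. Hmmr, a hyaluronan-binding protein that also works on the mitotic spindle, was at 31.5 to 33.5 CPM at 0 h and was called in 8 of 9 comparisons. It rose in OS by 1.74 at 3 h (148, 152 and 58.9 CPM, the last in the library that stood apart, and 2.18 without it) and by 2.91 ± 0.24 at 12 h (226 to 262 CPM; adjusted p = 1.45e-11), and at 72 h it fell by 1.82. In AD it rose by 1.84 at 3 h and by 2.57 at 12 h (312, 157 and 157 CPM, the first in the library that stood apart, and 2.24 without it). At 72 h of AD it fell by 3.18 ± 0.24 (2.38 to 3.19 CPM; adjusted p = 3.60e-12), with -3.12 without that group's library that stood apart. In CH it rose by 2.20 at 3 h and by 1.41 at 72 h (81.6 to 94.1 CPM), and it had 42.2 to 49 CPM at 12 h, where it was not called. Stab1, a scavenger receptor, was listed at 0 in the 3 samples of 0 h and at 11.4, 12 and 11.7 CPM at 3 h of AD, at most 103 reads. Stab2, which takes up hyaluronan for clearance, was listed at 0 in the same samples and at 1.03, 2.21 and 1.56 CPM at 72 h of CH, at most 10 reads. Each of these 2 genes had 1 CPM or more in only the 3 samples named and entered the test through them, so their calls are no support for a difference.

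Binding proteins could be tested for 3 of 18 genes. The link protein Hapln4 was listed at 0.286, 1.53 and 1.36 CPM at 0 h, at 6.21, 7.01 and 8.24 CPM at 12 h of CH (log2 difference 2.04, adjusted p = 5.37e-06) and at 9.74, 9.73 and 9.12 CPM at 72 h (2.41, adjusted p = 2.87e-07). Itih2, a heavy chain that is transferred onto hyaluronan, was listed at 0.43, 0.557 and 0.455 CPM at 0 h and at 5.72, 6.58 and 4.57 CPM at 12 h of OS (2.15, adjusted p = 4.56e-08). Habp4 was not called. The large proteoglycans Vcan and Acan did not exceed 0.355 and 0.151 CPM.

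Over the 18 tested list genes, Has2 and Cemip included, the calls at 3 h of OS were 4 upward and 1 downward, those at 12 h were 7 upward with 2 downward, and the 72 h samples had 2 of each. In AD the upward and downward counts were 5 and 1, 2 and 2, and 2 and 3 at the same times. In CH they were 3 and 1, 4 and 1, and 5 and 2. Thus 5, 9 and 4 of 18 were called in OS, against 18.4%, 21.8% and 12.5% of all tested genes, 6, 4 and 5 in AD against 18.8%, 13.7% and 15.3%, and 4, 5 and 7 in CH against 18.0%, 14.4% and 18.0%. Has2 and Cemip are in all of these counts, and without them 3, 7 and 2 of 16 list genes were called in OS, 4, 2 and 3 in AD and 2, 3 and 5 in CH. Without the libraries that stood apart the counts of 18 went from 5 to 6 at 3 h of OS (Hexa), from 4 to 5 at 12 h of AD (Hapln4, 1.10) and from 5 to 6 at 72 h of AD (Cd44). Larger moves were from 4 to 7 at 72 h of OS with edgeR and DESeq2 and from 4 to 7 at 3 h of CH with edgeR. With pseudocount 0.1 the count at 72 h of AD went from 5 to 8. The median log2 difference of the 18 genes was 0.10, 0.19 and 0.27 in OS, against 0.09, 0.09 and 0.08 over all tested genes. In AD it was 0.16, 0.13 and -0.04 against 0.15, 0.15 and -0.05, and in CH 0.30, 0.03 and 0.16 against 0.21, 0.11 and 0.01. Genes entered the test only if 3 or more samples held 1 CPM or more, and some, such as Stab1 and Stab2, entered through the group where they were high, so these counts are descriptions. The other 13 list genes in the files were below that limit. Of the 31 calls of list genes other than Has2 and Cemip, 4 were lost under at least 1 of 9 other settings and no direction turned. Scaling moved the median of all tested genes against 0 h by -0.21 to 0.11 with median-ratio size factors. Among called genes the share that was higher than 0 h was 40.5% to 72.9% over the 9 comparisons as deposited and 41.8% to 63.0% after that scaling. Within OS this share was 63.7%, 67.2% and 57.6% as deposited in the 3, 12 and 72 h comparisons, and 47.3%, 46.6% and 48.2% once scaled. For AD 12 h it was 59.5% and then 41.8%, for CH 12 h 65.4% and then 46.1%, and for AD 72 h 40.5% and then 52.1%, so the more frequent direction of the calls turned in these 6.

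**Figure D3:**
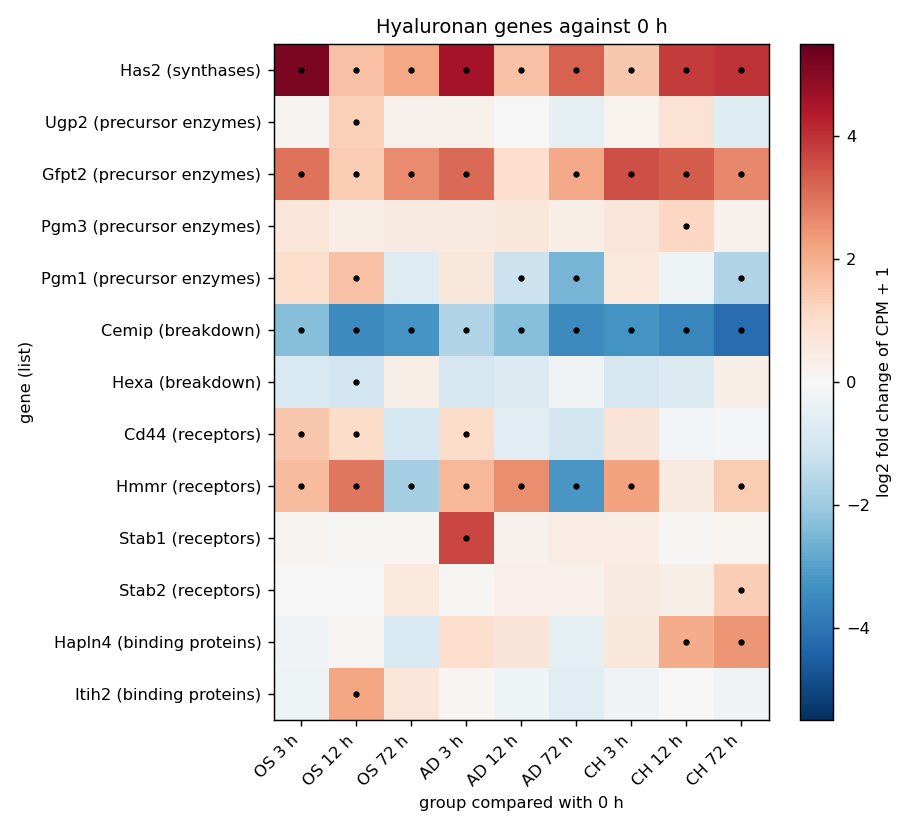
Log2 fold change of CPM + 1 against 0 h for the genes of the hyaluronan lists that were called in at least 1 comparison (rows, with their list) in the 9 groups (columns), with color for the size and dots for those past the rule. Has2 and Cemip carry dots in all 9 columns, Gfpt2 and Hmmr in 8.

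Genes whose 10 group means ran most like those of Has2 were sought among 3340 tested genes that spanned at least 1 log2 unit, by Pearson r over the 10 means. They were Plau (r = 0.861), Efnb1 (0.792), Sars (0.770), Cers6 (0.744) and Aldh8a1 (0.739). Plau, the urokinase-type plasminogen activator, was at 2.25 CPM on average at 0 h, 44.6 at 3 h of OS and 187 at 3 h of AD, and Efnb1 at 53.3, 206 and 226 CPM. Sars, Cers6 and Aldh8a1 did not exceed 6.74, 3.33 and 3.1 CPM. Of these 5 genes 3 were also among the 5 highest by Spearman correlation and 3 after median-ratio scaling.

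For Cemip the 5 genes were Tnfrsf11b (r = 0.876), Pik3r5 (0.875), Slc15a3 (0.873), Dcdc2 (0.864) and Il6 (0.854). Tnfrsf11b, which encodes the decoy receptor osteoprotegerin, had mean levels of 302 CPM at 0 h, 142, 21.7 and 52.4 CPM at 3, 12 and 72 h of OS, 162, 86.7 and 69.2 CPM in AD, and 105, 30.2 and 23.4 CPM in CH. Il6, the cytokine interleukin 6, was at 42.3 CPM at 0 h and 23.9 CPM at 3 h of AD and did not exceed a mean of 8.01 CPM in the other groups. Of these 5 genes all were kept after median-ratio scaling, but 1 by Spearman correlation. The 10 means share the libraries, and r is given without a p.

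Of the 2 genes, Cemip had a promoter window among the RefSeq sequences of the rat (build GRCr8). It is shown because Cemip was called against 0 h in all 9 comparisons, and runs from 250 bases before to 50 after the start of the gene on the minus strand, chr1:147471434-147471733, written 5′ to 3′ with matches to the motifs searched in capitals.
Cemip: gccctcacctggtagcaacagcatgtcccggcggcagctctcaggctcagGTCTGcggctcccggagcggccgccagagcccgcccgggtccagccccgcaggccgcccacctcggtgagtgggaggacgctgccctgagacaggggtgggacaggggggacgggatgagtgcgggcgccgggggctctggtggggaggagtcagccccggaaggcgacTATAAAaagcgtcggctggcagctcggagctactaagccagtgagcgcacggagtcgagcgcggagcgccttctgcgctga
Exact matches were sought on both strands. The window holds the letters TATAAA at 31 bases before the start, on the strand of the gene, as do 14.2% of 33469 windows of this length on either strand. It holds CAGAC, the SMAD element, once on the other strand (GTCTG as written), a word that 50.1% of windows hold. The other words searched were TGANTCA (AP-1, in 7.33% of windows), TGACGTCA (CRE, 1.83%), its part TGACG (21.2%), TGTTCT (part of the glucocorticoid response element, 20.7%) and ACGTG (core of the hypoxia response element, 19.3%), and these letters are not in the window. A match describes letters and is not a site of binding.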

How the data were processed

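RNA-seq values of 30 samples were used as deposited: the authors trimmed reads (Trimmomatic), aligned them (HISAT2) and quantified genes with StringTie, whose versions are not given in the sources used here, and deposited gene values in CPM. Divided by the smallest value of the sample, 100% of values came out whole (tolerance 0.01), so whole reads and library totals were recovered. Rows of the same name were summed (10803 rows, 9999 names), and a gene entered the tests where 3 or more samples held 1 CPM or more (4363 genes). The design had assumed values like FPKM, and its test was kept. limma 3.58.1 (R 4.3.3; trend, no block) was fitted to log2(CPM + 1) of all 30 samples as 10 groups, with Benjamini-Hochberg adjustment over tested genes in each of 30 comparisons. This scale understates changes of low genes. Scripts were tested on simulated data. Named were Has2, Cemip, list genes past the rule against 0 h and the 5 genes most like each by correlation. Alternatives were pseudocount 0.1, no filter, 3 scalings, only the groups compared, a replicate block, each replicate left out, edgeR 4.0.16, DESeq2 1.42.0 and, chosen after seeing the data, leaving out together the libraries with more than 250 genes over 1 log2 unit from their replicates. Members and lists were chosen with earlier results of these data known. Has2 had no promoter window to print. Markers absent from the gene names (such as Nt5e, Col1a1, Ptprc, Pecam1 and Runx2) were not analysed here.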

Additional observations from a re-analysis of the deposited data

Results flagged for a closer look

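Differences between lineages that were themselves tested are collected here. Because the lineages share the 0 h samples, a difference between lineages at a time is also the difference of their changes from 0 h. For Has2 the log2 differences past the rule were 3.69 for OS against CH and -3.08 for CH against AD at 3 h, -2.24 and 2.22 for the same pairs at 12 h, and -1.10 for OS against AD and -1.86 for OS against CH at 72 h, of which -1.10 was not called without AD 72 h replicate 1 (-0.83) or replicate 2 (-0.97). In the change from 3 to 12 h they were -5.93 for OS against CH and 5.30 for CH against AD, and in the change from 12 to 72 h -1.08 for OS against AD and -1.47 for CH against AD. The former was lost in 9 of 12 fits that each left out 1 sample (-0.59 without AD 12 h replicate 1), and the latter in the fit without that library (-0.97). A fit of only the groups compared lost the calls of -1.08, -1.47 and, at 72 h, -1.10. The call of -1.08 was also lost with no filter and, at -0.99, without the libraries that stood apart. For Cemip the log2 differences past the rule were -1.62 for CH against AD at 3 h, -1.16 for OS against AD and -1.26 for CH against AD at 12 h, and 1.40 for OS against AD in the change from 12 to 72 h.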

How the results depend on the processing

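Has2 was higher and Cemip lower than at 0 h, and called, in all 9 comparisons under every alternative run. Of 574 values of 60 log2 differences of the genes under settings that left out no single sample, 543 kept their direction and side of the rule, as did 412 of 432 with 1 sample left out. The cause of the following changes was not tested. For Cemip, calls were lost at 72 against 12 h of AD with median-ratio scaling (-0.73), quantile normalization (-0.74), the same sum (-0.83), edgeR (-0.76) and DESeq2 (-0.69), and at 12 against 3 h of OS without the libraries that stood apart, an alternative chosen after seeing the data (-0.9997; single samples left out -1.26 to -0.9997). Calls were gained for OS against CH at 3 h with median-ratio scaling (1.05), edgeR (1.08) and DESeq2 (1.07; left out 0.79 to 1.06), for its change from 3 to 12 h with the same settings (-1.05, -1.12 and -1.06), and with the same sum at 72 h (1.09) and in the change from 12 to 72 h (1.12). CH against AD at 72 h was called with quantile normalization (-1.22) and the same sum (-1.20). The sign turned for OS against CH at 12 h with quantile normalization (-0.0026), the same sum (-0.03) and edgeR (-0.04), and for OS against AD at 72 h with median-ratio scaling (-0.10), quantile normalization (-0.29), the same sum (-0.11), edgeR (-0.06) and DESeq2 (-0.15). For Has2, a fit of only the groups compared lost the calls at 72 against 12 h of AD (1.60; adjusted p over all alternatives 1.07e-12 to 0.084) and OS against AD at 72 h (-1.10; 1.42e-13 to 0.0692; left out -1.51 to -0.83). For the change from 12 to 72 h it lost those of OS against AD (-1.08; 4.04e-06 to 0.207) and CH against AD (-1.47; 6.37e-09 to 0.0703; left out -1.87 to -0.97). OS against AD in that change was also lost with no filter (-1.08) and without the libraries that stood apart (-0.99; left out -1.49 to -0.59), and in the change from 3 to 12 h it was gained without them (-1.28; left out -1.13 to -0.37), where the genes called went from 484 to 737. OS against AD at 12 h ran from -0.52 to 0.24 and CH against AD at 72 h from 0.35 to 1.02 with 1 sample left out. List genes past the rule went from 4 to 7 at 72 h of OS with edgeR and DESeq2, from 4 to 7 at 3 h of CH with edgeR and from 5 to 8 at 72 h of AD with pseudocount 0.1. Of the 5 genes most like Has2, 3 were shared with Spearman and 3 with median-ratio scaling, and of those for Cemip 1 with Spearman. Whether samples of the same replicate number share an origin is not stated. The median correlation of deviations of same-numbered samples was -0.01 and 6 of 30 samples matched best with their own number, which cannot exclude a pairing. With the replicate block Has2 rose by 5.19 at 3 h of OS, and none of the 60 log2 differences of Has2 and Cemip changed direction or side of the rule. Counts of genes called moved little, such as from 334 to 330 for OS against AD at 3 h. On the recovered reads (100% of values whole) edgeR called 1002 and 1195 genes at 3 and 12 h of OS against 801 and 952 by limma. At these depths 3 reads are up to 0.769 CPM, which limits the list genes near 0.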
